A study of Mus musculus with 45 samples.

Results

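The proteasome subunit genes were the 42 of 13449 genes in the deposited table whose symbol is Psma, Psmb, Psmc, Psmd or Psme followed only by digits. Psmc3ip and Psme3ip1 were not counted, because these 2 symbols go on after the digits. The members comprised 14 genes of the core particle (7 of the alpha ring and 7 of the beta ring) and 17 of the regulatory particle (6 ATPases and 3 other subunits of the base, and 8 lid subunits). The others were 3 inducible catalytic subunits, 3 chaperones of base assembly, 4 activators and the testis subunit Psma8. RNA came from fetal mouse livers at E15.5, from VavCre females mated to males with 2 floxed copies of Rpl5 or of Rps19. Both genes encode ribosomal proteins. The groups were VavCre Rpl5flox/+ and Rpl5flox/+, and VavCre Rps19flox/+ and Rps19flox/+, so that the controls too carried 1 floxed allele and lacked only VavCre, a Cre transgene active in blood cells. Every liver was exposed to 25 µg/mL emetine, which stalls ribosomes on mRNA, for 15 min. Kit+ cells, which hold progenitors, were isolated with magnetic beads, Ter119+ (erythroid) cells were then isolated from the remainder, and both were pooled by genotype. Sucrose gradients separated cytoplasm from polysomes, and the poly(A) RNA of both fractions gave 45 libraries in 16 groups. Of these groups 14 had 3 libraries each, there was 1 library of VavCre Rpl5flox/+ Kit+ polysomes, and there were 2 of Rpl5flox/+ Ter119+ polysomes.

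The proteasome degrades proteins tagged with ubiquitin. Its core particle is a barrel of alpha rings, which gate the entrance, and beta rings, which hold the protease sites of Psmb5, Psmb6 and Psmb7. The regulatory particle caps the barrel. Its lid takes off ubiquitin, and the ATPases of its base unfold the substrate and feed it in. Interferon and some blood lineages replace the constitutive protease subunits by Psmb8, Psmb9 and Psmb10, and the activators open the core without ubiquitin. Maturing erythroid cells are known for clearing much of their proteome through ubiquitin and the proteasome before they become reticulocytes.

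Depth was 45.0 to 123.0 M (1e+06) reads for Ter119+ and 22.9 to 70.1 M for Kit+ cytoplasm, and 1.02 to 39.8 M for Ter119+ and 1.01 to 37.6 M for Kit+ polysomes, with 4 polysome libraries under 2 M. Of the 42 members 37 had reads in every library. Levels are normalized counts, that is reads divided by the library's size factor, and changes are differences of the deposited log2 values with their standard error. A gene was called at an adjusted p under 0.05 by limma, over all genes whose normalized count averaged 10 or more. These p-values measure the spread between libraries of pooled cells. In control cells 5 Kit+ progenitor markers summed to 281 to 656 in Ter119+ cytoplasm and 3758 to 4969 in Kit+ cytoplasm, and 5 erythroid markers summed to 616648 to 1355274 in Ter119+ and 13879 to 18731 in Kit+ cytoplasm. Rpl5 averaged 531 ± 81.3 in VavCre Rpl5flox/+ and 1046 ± 100.4 in Rpl5flox/+ Kit+ cytoplasm (SD, n = 3 each). It averaged 499.9 ± 47.0 in the libraries labelled VavCre Rpl5flox/+ Ter119+ and 368 ± 83.6 in Rpl5flox/+ Ter119+ cytoplasm. On normalized counts this goes against that label, so every direction drawn from these libraries is that of the labels. Rps19 was higher there too, at 24291 ± 180.2 in the labelled VavCre libraries and 11545 ± 1544 in Rpl5flox/+ Ter119+ cytoplasm. Rpl5 relative to other ribosomal protein genes was not tested. In Kit+ cytoplasm of the other line Rpl5 averaged 643 ± 135 in VavCre Rps19flox/+ and 965 ± 89.6 in Rps19flox/+. Rpl5 averaged 372 ± 38.9 in Rps19flox/+ Ter119+ cytoplasm. Over the controls of both lines it averaged 1005 ± 96.1 in Kit+ and 370.1 ± 58.3 in Ter119+ cytoplasm. An exchange of labels was not tested. Rps19 averaged 12939 ± 1409 in VavCre Rps19flox/+ and 18037 ± 1985 in Rps19flox/+ Kit+ cytoplasm, and 12023 ± 1513 in VavCre Rps19flox/+ and 13842 ± 1331 in Rps19flox/+ Ter119+ cytoplasm (SD, n = 3 each). Reads of 5 members, Psma5, Psmb5, Psmb6, Psmb7 and Psme2, could be shared with annotated copies. In the RefSeq annotation Psmd1, Psmd10, Psme1 and Psme4 overlap Htr2b, Atg4a, Emc9 and Erlec1, and since the strand used for counting is not given in the sources used here, reads of such neighbours cannot be told apart.

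In control cytoplasm, on normalized counts, the Ter119+ cells had more regulatory particle mRNA and less core mRNA than the Kit+ cells. These levels are relative to the size factors. As a share of all reads the members together were lower in Ter119+ cytoplasm. They took 2859.7 reads per M in Rpl5flox/+ and 3088 in Rps19flox/+ Ter119+ cytoplasm, against 8681 and 8983 in Kit+ cytoplasm. Higher in Ter119+ cells were 14 of the 17 regulatory genes, including 6 of 6 ATPases, 3 of 3 other base subunits and 5 of 8 lid subunits, while 8 of the 14 core genes were lower. In all 20 members (47.6%) were called higher and 14 (33.3%) lower, against 35.9% and 42.8% of all genes. The median change was 0.50 over the regulatory genes and -0.24 over the core genes, against -0.13 over all genes tested. Fewer cells of a type and less RNA per cell cannot be told apart in such bulk samples.

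Psmc2, an ATPase of the base, had 2299.8 at the lowest, 2579.7 at the median and 2862 at the highest of 6 Ter119+ libraries, against 1597 at the lowest, 1674 at the median and 1733 at the highest of 6 Kit+ libraries. Psmd4, a ubiquitin receptor of the base, had 4135 at the lowest, 5085 at the median and 6479.7 at the highest in Ter119+ cells, against 2683 at the lowest, 2792 at the median and 3002 at the highest in Kit+ cells. All 6 Ter119+ libraries lay above all 6 Kit+ libraries in both genes, with changes of 0.62 ± 0.08 (adjusted p = 1.91e-06) for Psmc2 and 0.85 ± 0.10 (adjusted p = 1.32e-06) for Psmd4. In the lid, the deubiquitinase gene Psmd14 was higher by 0.68 ± 0.10 (adjusted p = 1.87e-05), whereas Psmd7, its partner subunit, was lower, at -0.31. The lid subunit genes Psmd3 and Psmd6 were not called, at -0.18 and 0.19.

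Among core genes Psma4, of the alpha ring, had 1217 at the lowest, 1267 at the median and 1437 at the highest in Ter119+ cells, against 1945 at the lowest, 2239 at the median and 2459 at the highest in Kit+ cells, a change of -0.78 ± 0.08 (adjusted p = 2.48e-07). The groups did not overlap, and the structural beta genes Psmb3, Psmb4 and Psmb2 were lower as well, at -0.76, -0.48 and -0.45. The exceptions were Psma2 and Psmb7, called higher. Psmb7, which carries the trypsin-like site, had 3763 at the lowest, 4166 at the median and 4821 at the highest in Ter119+ cells, against 2289 at the lowest, 2360.0 at the median and 2549 at the highest in Kit+ cells, a change of 0.81 ± 0.07 (adjusted p = 8.68e-08). Psmb5 and Psmb6, which carry the chymotrypsin-like and caspase-like sites, were not called, at -0.01 and -0.10.

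All 3 inducible genes were lower in control Ter119+ cytoplasm. Psmb10, the inducible counterpart of Psmb7, had 71.7 at the lowest, 92.5 at the median and 208 at the highest in Ter119+ cells, against 656 at the lowest, 675 at the median and 817 at the highest in Kit+ cells, a change of -2.62 ± 0.18 (adjusted p = 3.07e-09). The highest Ter119+ library, Rps19flox/+ replicate 3, stood apart from the other 5 and still lay below every Kit+ library. Psmb8 and Psmb9 changed by -1.30 and -1.14. The testis subunit gene Psma8 changed by -1.58. Granulocyte and monocyte markers summed to 4545 to 8994 in Ter119+ and 14786 to 22171 in Kit+ cytoplasm, with 6 of 8 called lower and 2 higher. B-lymphoid markers summed to 79.2 to 175 in Ter119+ and 517 to 1307 in Kit+ cytoplasm, with 5 of 5 called lower. Macrophage markers summed to 1181 to 3717 in Ter119+ and 203 to 398 in Kit+ cytoplasm, with 7 of 7 called higher, and hepatocyte markers summed to 5521 to 30977 in Ter119+ and 2845 to 14223 in Kit+ cytoplasm, with 6 of 6 called higher. The part of these cells in the results was not tested.

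The largest increase in Ter119+ cells was that of Psme3, which encodes the nuclear activator. Psme3 had 30068 at the lowest, 34646 at the median and 68997 at the highest in Ter119+ cells, against 4154 at the lowest, 4679 at the median and 4921 at the highest in Kit+ cells, a change of 3.07 ± 0.16 (adjusted p = 7.67e-11). Every Ter119+ library lay above every Kit+ library, and Psme4, another nuclear activator, was higher by 1.76. Psme1, a subunit of the activator that interferon induces, was lower, at -1.14, while its partner Psme2 was not called, at -0.04. Of the base assembly chaperones, Psmd5 had 2480.3 at the lowest, 2932 at the median and 3677 at the highest in Ter119+ cells, against 1328 at the lowest, 1392 at the median and 1439 at the highest in Kit+ cells, a change of 1.07 ± 0.08 (adjusted p = 1.27e-08), and Psmd10 was higher by 0.96. Psmd9 was not called, at 0.00.

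The rest of the pathway was read from a list of 40 genes chosen with earlier results of these data known, of which 39 were tested. In Ter119+ control cytoplasm 21 were called higher and 15 lower, where 35.9% and 42.8% of all genes were called. Of the chaperones of core assembly, 4 went with the core, with changes of -2.33 for Psmg1, -1.51 for Psmg4, -1.50 for Psmg3 and -1.18 for Pomp. Psmg2, also on the list, is not given here. All 7 genes of transcription and processing were higher, among them Nfe2l1, which encodes the transcription factor that raises proteasome genes when the proteasome is impaired, at 1.41. The 4 ubiquitin-conjugating enzyme genes listed for erythroid cells were higher too, with 6.49 for Ube2o and 5.96 for Ube2l6. Uba1, which activates ubiquitin, was higher by 1.77.

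**Figure D1:**
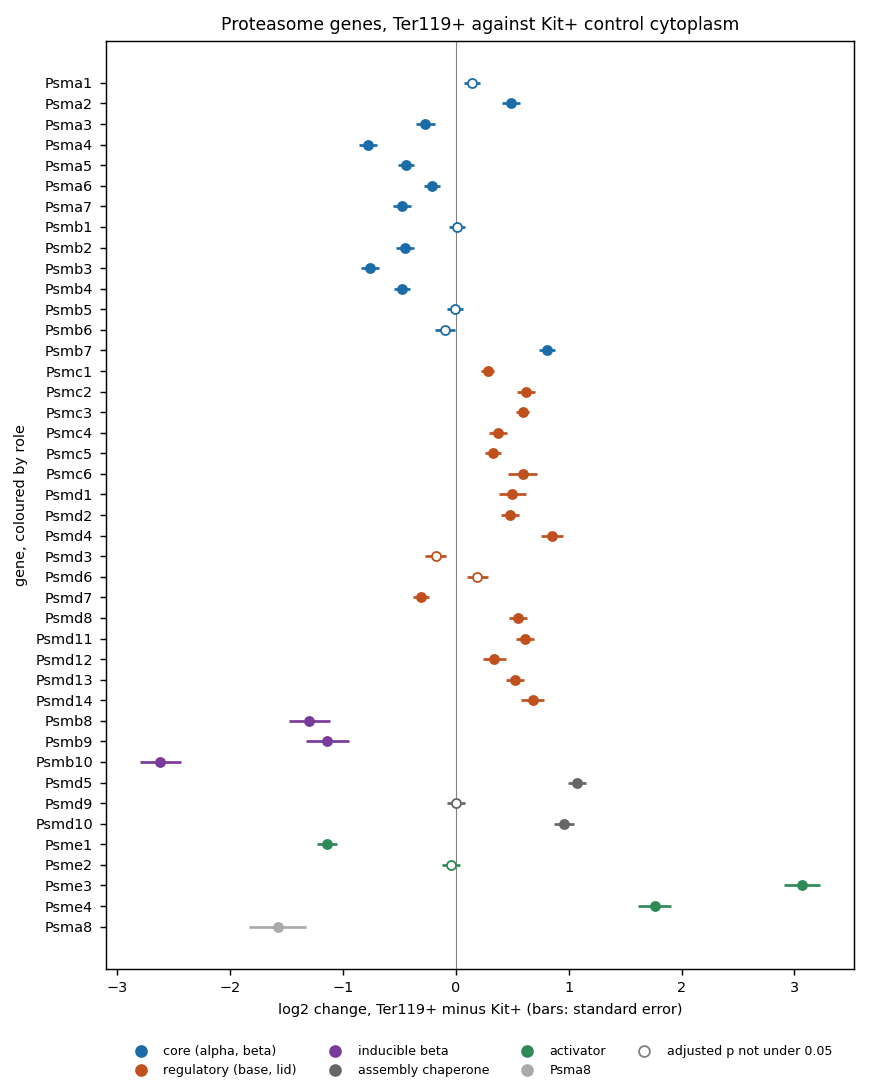
Change of each proteasome gene in control Ter119+ against control Kit+ cytoplasm (log2, points with standard error, 6 libraries each, grouped by role). The regulatory genes lie mostly above 0, with a median of 0.50, the core genes mostly below, with a median of -0.24, and Psme3 and Psmb10 lie farthest out at 3.07 and -2.62.

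Promoters are shown for some members of the core and regulatory groups with a motif match, and for Psme1, because interferon regulates it. RefSeq promoters of GRCm38.p6, from 250 bases before to 50 after a gene's start, were listed for 35 of the 42 members, and letters were searched on both strands. An ETS motif, CCGGAAG, was found for 9 of 14 regulatory genes and 1 of 11 core genes with a promoter, against 9.93% of all 27025 genes with one. It is shown in capitals for Psmc2 (chr5:21785025-21785324, + strand, match from position -84, counted from the start) and Psmd2, a large scaffold of the base (chr16:20651402-20651701, + strand, match from position -26).

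Psmc2: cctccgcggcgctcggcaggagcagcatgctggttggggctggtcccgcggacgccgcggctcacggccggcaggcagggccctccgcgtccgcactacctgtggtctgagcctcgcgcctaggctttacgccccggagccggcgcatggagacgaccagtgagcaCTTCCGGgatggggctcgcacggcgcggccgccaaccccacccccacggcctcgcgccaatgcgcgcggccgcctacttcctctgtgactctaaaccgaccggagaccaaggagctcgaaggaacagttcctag

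Psmd2: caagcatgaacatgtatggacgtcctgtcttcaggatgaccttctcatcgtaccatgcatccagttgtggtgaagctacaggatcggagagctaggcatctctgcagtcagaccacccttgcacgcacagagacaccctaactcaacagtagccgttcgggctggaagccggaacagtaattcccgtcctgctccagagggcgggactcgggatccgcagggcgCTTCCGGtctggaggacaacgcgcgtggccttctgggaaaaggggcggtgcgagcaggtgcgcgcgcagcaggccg

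An antioxidant-type motif, of the kind bound by Nfe2l1 and Nfe2l2, was searched as TGACNNNGC and TGAGNNNGC. Either form was found for 7 of 11 core genes, 63.6%, and 5 of 14 regulatory genes, 35.7%, against 30.8% of all genes. The form TGACNNNGC was found for 14% of all genes, for 2 of 11 core genes, Psmb5 and Psmb6, and for 2 of 14 regulatory genes, Psmc6 and Psmd12. It thus does not set the core apart, and Psmb5 and Psmb6 were not called in control Ter119+ against Kit+ cytoplasm. This form is in capitals for Psmb5 (chr14:54617946-54618245, - strand, match from position -47) and Psmb6 (chr11:70525107-70525406, + strand, match from position -9). CCAAT was found for 6 of 11 core and 4 of 14 regulatory genes, against 41.1% of all.

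Psmb5: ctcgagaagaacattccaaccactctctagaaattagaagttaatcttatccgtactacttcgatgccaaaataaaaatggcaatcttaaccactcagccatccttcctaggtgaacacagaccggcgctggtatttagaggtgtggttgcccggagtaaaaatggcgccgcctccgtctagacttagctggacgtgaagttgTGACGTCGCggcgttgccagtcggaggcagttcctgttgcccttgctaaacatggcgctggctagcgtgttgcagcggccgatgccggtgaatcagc

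Psmb6: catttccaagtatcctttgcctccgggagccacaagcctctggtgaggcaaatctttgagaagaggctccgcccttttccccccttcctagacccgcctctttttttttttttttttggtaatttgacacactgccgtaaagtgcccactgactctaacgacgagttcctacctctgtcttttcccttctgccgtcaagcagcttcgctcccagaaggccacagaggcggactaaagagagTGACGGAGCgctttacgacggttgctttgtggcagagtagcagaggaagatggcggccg

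An interferon-type motif, GAAA and again GAAA after any 2 bases, was found for Psmb3, Psmd4, Psmd9 and Psme1, for none of the 3 inducible genes in this window, and for 3.99% of all genes. It is in capitals for Psme1 (chr14:55578244-55578543, + strand, match from position 9). These matches describe letters in a window and not binding.

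Psme1: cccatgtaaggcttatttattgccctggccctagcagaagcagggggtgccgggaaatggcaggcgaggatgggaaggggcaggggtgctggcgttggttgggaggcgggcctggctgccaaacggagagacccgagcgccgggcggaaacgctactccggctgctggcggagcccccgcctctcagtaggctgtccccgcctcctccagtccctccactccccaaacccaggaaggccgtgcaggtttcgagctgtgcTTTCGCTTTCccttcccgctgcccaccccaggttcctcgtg

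In the libraries labelled VavCre Rpl5flox/+ Ter119+ regulatory genes were mostly lower in cytoplasm on normalized counts, and core genes more often higher than lower. As a share of all reads the members together were higher there, at 4970.1 reads per M, against 2859.7 in Rpl5flox/+. The directions below are thus relative to the size factors. Of the 17 regulatory genes 14 were called lower, with a median change of -0.40 over the 17, and limma called 0 higher, also at an unadjusted p under 0.05 and with voom weights, and of the 14 core genes 6 were called higher and 2 lower, with a median of 0.23. Lower were 6 of 6 ATPases, 3 of 3 other base subunits and 5 of 8 lid subunits. Some of these calls were lost in fits without 1 of the 6 libraries. Psmd4 lost its call in 5 fits (adjusted p by limma up to 0.195), and Psmc4 and Psmc6 in 4 each (up to 0.126 and 0.123). Psmd2 and Psmd11 lost theirs in 2 each (up to 0.0549 and 0.11), and Psmd6 in 1 (0.0508). The call of Psmd4 was also lost with the replicate block (adjusted p = 0.0515). In all 12 members (28.6%) were called higher and 21 (50.0%) lower, against 35.3% and 30.1% of all genes, whose median was 0.16. The count of 14 regulatory genes was 9 without Rpl5flox/+ replicate 2.

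Psmc2 had 1659, 1703 and 1669 in the libraries labelled VavCre Rpl5flox/+ Ter119+, against 2733, 2862 and 2427 in Rpl5flox/+, a change of -0.66 ± 0.11 (adjusted p = 0.000161). Psmd1, the base scaffold, changed by -0.75 ± 0.17 (adjusted p = 0.00144), and Psmd12, of the lid, by -0.64 ± 0.14 (adjusted p = 0.0014). The 3 labelled VavCre libraries lay below all 3 controls in Psmc2. The lid genes Psmd3, Psmd7 and Psmd8 were not called, at -0.10, -0.11 and -0.11.

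In the core, Psmb3, a structural beta subunit, had 3071, 2724 and 2512 in the labelled VavCre libraries, against 1534, 1528 and 1609.8 in Rpl5flox/+, a change of 0.82 ± 0.13 (adjusted p = 8.55e-05). Psma4, of the alpha ring, had 1771, 1945 and 1930.1 in the labelled VavCre libraries, against 1223, 1222 and 1437 in Rpl5flox/+, a change of 0.54 ± 0.11 (adjusted p = 0.000697). Neither pair of groups overlapped. Psmb2, Psmb4, Psma7 and Psma5 also rose, by 0.45, 0.44, 0.41 and 0.31. Of these the calls of Psma5 and Psma7 were lost in 4 and 2 of 6 fits without 1 library, at adjusted p up to 0.161 and 0.069, and with the libraries rescaled. Psma1 and Psmb7 fell, with changes of -0.50 and -0.58, and the protease genes Psmb5 and Psmb6 were not called, at 0.25 and 0.14.

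The inducible genes rose together, 3 of 3. Psmb10 had 891, 803 and 726 in the labelled VavCre libraries, against 83.4, 94.4 and 99.4 in Rpl5flox/+, a change of 2.94 ± 0.28 (adjusted p = 1.15e-06). Psmb8, the inducible counterpart of Psmb5, had 298, 294 and 199 in the labelled VavCre libraries, against 61.5, 78.5 and 105 in Rpl5flox/+, a change of 1.54 ± 0.30 (adjusted p = 0.000433). Psmb9, the counterpart of Psmb6, had 109, 104 and 80 in the labelled VavCre libraries, against 29.5, 49 and 43 in Rpl5flox/+, a change of 1.05 ± 0.32 (adjusted p = 0.011, or 0.0608 with the libraries rescaled). No labelled VavCre library overlapped the controls in any of these genes. Psma8 rose by 1.44 ± 0.36 (adjusted p = 0.00323).

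Psme1 rose by 1.67 ± 0.14 (adjusted p = 2.93e-07) and Psme2 by 0.39, a call lost in 2 of 6 fits without 1 library (adjusted p up to 0.0678), whereas both nuclear activators fell. Psme3 had 10798, 14329.8 and 11496 in the labelled VavCre libraries, against 43922, 68997 and 30068 in Rpl5flox/+, a change of -1.89 ± 0.24 (adjusted p = 1.08e-05), and Psme4 changed by -0.93. All 3 base chaperones fell. Psmd5 had 1239.5, 1301 and 1290.1 in the labelled VavCre libraries, against 3061, 3677 and 2844 in Rpl5flox/+, a change of -1.30 ± 0.12 (adjusted p = 9.28e-07), and Psmd10 and Psmd9 changed by -0.94 and -0.63. In Psmd5 and Psme3 the labelled VavCre libraries lay below every control.

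In the pathway list 11 genes rose and 20 fell. Of the chaperones of core assembly, the same genes rose, by 2.33 for Psmg1, 1.33 for Psmg4, 1.06 for Psmg3 and 0.89 for Pomp. Psmg2 is again not given, so these values do not cover all the listed chaperones of core assembly. Genes of transcription and processing fell in 6 of 7 cases, with changes of -1.36 for Nfe2l1 and -1.40 for Nploc4, an adaptor of the p97 unfoldase. The 4 genes listed for ubiquitin conjugation in erythroid cells fell. Cell type markers moved with these groups. Kit+ progenitor markers summed to 2838 to 2905 in the labelled VavCre libraries and 281 to 656 in Rpl5flox/+, with 5 of 5 called higher. Erythroid markers summed to 127518 to 176443 in the labelled VavCre libraries and 616648 to 1355274 in Rpl5flox/+, with 5 of 5 called lower. Granulocyte and monocyte markers summed to 30665 to 62648 in the labelled VavCre libraries and 5369 to 8994 in Rpl5flox/+, with 6 of 8 called higher. No list had a marker without reads throughout a group, and the part of these cells in the result was not tested.

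**Figure D2:**
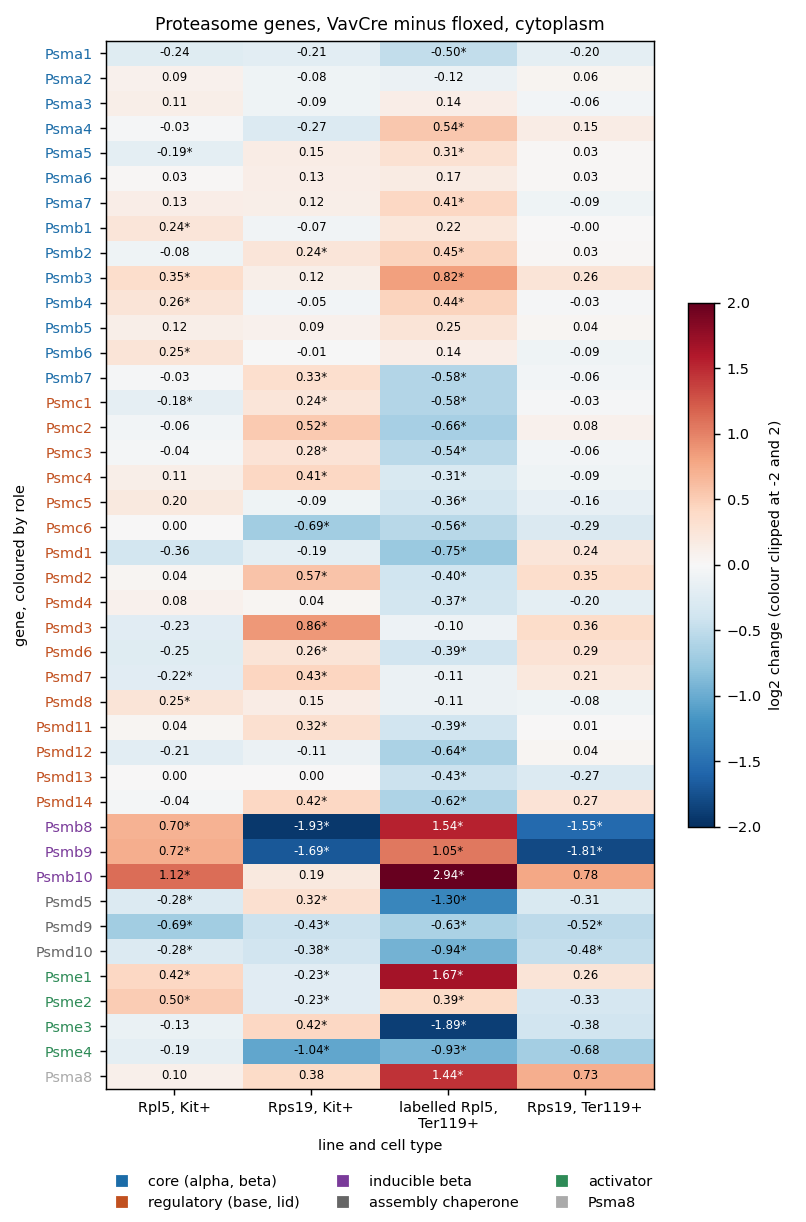
Change of each proteasome gene in the 4 comparisons of VavCre with floxed cytoplasm (log2, grouped by role). In the libraries labelled VavCre Rpl5flox/+ Ter119+ the regulatory genes lie mostly below 0 (median -0.40) and the core genes mostly above (median 0.23), and in VavCre Rps19flox/+ Ter119+ both medians are 0.01.

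In VavCre Rpl5flox/+ Kit+ cytoplasm all 3 inducible genes rose, as did Psme1 and Psme2 of the interferon-induced activator, and all 3 base chaperones fell. Of the core genes 4 rose and 1 fell, and of the regulatory genes 1 rose and 2 fell. In all 10 members (23.8%) were called higher and 6 (14.3%) lower, shares near the 20.8% and 16.4% of all genes, with a median of 0.02 over the members and 0.03 over all genes. With the libraries rescaled 6 members were higher and 8 lower, and without VavCre replicate 1 only 10 were called.

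Psmb10 had 1659, 1583 and 1461 in VavCre Rpl5flox/+ Kit+ cytoplasm, against 817, 668 and 663 in Rpl5flox/+, a change of 1.12 ± 0.10 (adjusted p = 2.18e-06). Psmb8 had 359, 466 and 335 in VavCre Rpl5flox/+, against 223, 225 and 241 in Rpl5flox/+, a change of 0.70 ± 0.16 (adjusted p = 0.00388). The VavCre libraries were above every control in both, and Psmb9 rose by 0.72. Psme2 had 1777, 1832 and 1585 in VavCre Rpl5flox/+, against 1234, 1261 and 1163 in Rpl5flox/+, a change of 0.50 ± 0.08 (adjusted p = 0.000496), and Psme1 rose by 0.42. Tap1, the peptide transporter gene that lies between Psmb9 and Psmb8 on chromosome 17 and is separated from Psmb9 by 225 bases, had 412, 479 and 418 in VavCre Rpl5flox/+, against 145, 118 and 122 in Rpl5flox/+, a change of 1.66 ± 0.16 (adjusted p = 4.91e-06). Granulocyte and monocyte markers summed to 43221 to 79135 in VavCre Rpl5flox/+ and 20173 to 22171 in Rpl5flox/+ Kit+ cytoplasm, with 5 of 8 called higher. Hepatocyte markers summed to 16494 to 30230.0 in VavCre Rpl5flox/+ and 4301 to 14223 in Rpl5flox/+, with 6 of 6 called higher, and Kit+ progenitor markers to 5373 to 6039 in VavCre Rpl5flox/+ and 4242 to 4969 in Rpl5flox/+, with 2 of 5 called higher. Erythroid markers summed to 3308 to 4678 in VavCre Rpl5flox/+ and 14464 to 14891 in Rpl5flox/+, and B-lymphoid markers to 242 to 307 in VavCre Rpl5flox/+ and 993 to 1307 in Rpl5flox/+, with 5 of 5 called lower in both lists. The part of these cells in the result was not tested.

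Psmb3 had 3519, 3396 and 3336 in VavCre Rpl5flox/+ Kit+ cytoplasm, against 2763, 2643 and 2617 in Rpl5flox/+, a change of 0.35 ± 0.09 (adjusted p = 0.00577). The groups did not overlap, and Psmb4, Psmb6 and Psmb1 rose by 0.26, 0.25 and 0.24, so that all 4 core genes that rose belong to the beta ring. Psma5 changed by -0.19 ± 0.07 (adjusted p = 0.0402). Psmb5 and Psmb7 were not called, at 0.12 and -0.03. In the regulatory particle the lid gene Psmd8 rose by 0.25 ± 0.07 (adjusted p = 0.0101), and Psmd7 and the ATPase gene Psmc1 changed by -0.22 and -0.18 ± 0.07 (adjusted p = 0.0467). The calls of Psma5 and Psmc1 were lost with the replicate block, at adjusted p of 0.0519 and 0.0585 by limma. Without 1 of the 6 libraries the call was lost in 5 fits for Psma5 and Psmd7 (adjusted p up to 0.143 and 0.142), in 4 for Psmc1 (up to 0.168), in 3 for Psmb4 (up to 0.104) and in 2 for Psmb1 (up to 0.0746). With the libraries rescaled the calls of Psmb4, Psmb6, Psmb1 and Psmd8 were lost, at adjusted p of 0.102, 0.0528, 0.0757 and 0.0517.

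Psmd9, a chaperone that escorts ATPases into the base, had 938, 742 and 971 in VavCre Rpl5flox/+, against 1486, 1407 and 1385 in Rpl5flox/+ Kit+ cytoplasm, a change of -0.69 ± 0.11 (adjusted p = 0.000375). The groups did not overlap. Psmd10 and Psmd5 changed by -0.28 and -0.28, calls lost in 3 and 1 of the 6 fits without 1 library (adjusted p up to 0.121 and 0.0553). In the pathway list 12 genes rose and 9 fell.

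In VavCre Rps19flox/+ Kit+ cytoplasm 10 of 17 regulatory particle genes rose and 2 inducible genes fell. Of the 17 regulatory genes 10 rose and 1 fell, with a median change of 0.26 over the 17, while of the 14 core genes 2 rose, with a median of 0.04 over the 14, and limma called 0 lower, against 1 at an unadjusted p under 0.05 and 0 with voom weights. In all 14 members (33.3%) were called higher and 8 (19%) lower, against 27.6% and 26.1% of all genes, whose median was 0.01. Left-out libraries gave 17 to 22 calls.

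Psmd3 had 5226, 4470.0 and 4510.3 in VavCre Rps19flox/+ Kit+ cytoplasm, against 2490.3, 2697 and 2592 in Rps19flox/+, a change of 0.86 ± 0.10 (adjusted p = 1.01e-05). Psmd2 had 5968, 5737 and 6172 in VavCre Rps19flox/+, against 3984, 3977 and 4079 in Rps19flox/+, a change of 0.57 ± 0.07 (adjusted p = 1.62e-05). Neither pair of groups overlapped, and the ATPase genes Psmc2, Psmc4, Psmc3 and Psmc1 rose by 0.52, 0.41, 0.28 and 0.24. Psmc6 was the ATPase gene that fell, with 615, 1147 and 1036 in VavCre Rps19flox/+, against 1560.1, 1437 and 1396 in Rps19flox/+, a change of -0.69 ± 0.18 (adjusted p = 0.00614). Replicate 1 was the lowest VavCre library in Psmc6, at 615. Of the lid, Psmd7, Psmd14, Psmd11 and Psmd6 rose by 0.43, 0.42, 0.32 and 0.26, the calls of Psmd14 and Psmd6 being lost in 4 and 5 of the 6 fits without 1 library (adjusted p up to 0.0787 and 0.193).

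In the core Psmb7 had 3041, 3014 and 3078 in VavCre Rps19flox/+, against 2352, 2549 and 2368 in Rps19flox/+ Kit+ cytoplasm, a change of 0.33 ± 0.06 (adjusted p = 0.000865), and Psmb2 rose by 0.24, a call lost in 2 of 6 fits without 1 library (adjusted p up to 0.0981). The 3 VavCre values of Psmb7 lay above every control. Psmb5 and Psmb6 were not called, at 0.09 and -0.01. Limma called 0 of the 7 alpha ring genes, against 2 at an unadjusted p under 0.05 and 0 with voom weights.

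Psmb8 had 46.2, 49.5 and 31.2 in VavCre Rps19flox/+ Kit+ cytoplasm, against 225, 196 and 173 in Rps19flox/+, a change of -1.93 ± 0.16 (adjusted p = 1.06e-06). Psmb9 had 21.8, 24.9 and 14.5 in VavCre Rps19flox/+, against 101, 92.7 and 86.4 in Rps19flox/+, a change of -1.69 ± 0.16 (adjusted p = 3.66e-06). The VavCre libraries were below every control in both, whereas Psmb10 was not called, at 0.19. Their neighbour Tap1 went the other way, with 243, 177 and 159 in VavCre Rps19flox/+ and 117, 113 and 87.7 in Rps19flox/+, a change of 0.78 ± 0.16 (adjusted p = 0.00107). Irf1, which encodes an interferon-response transcription factor, changed by -1.43 ± 0.20 (adjusted p = 5.56e-05). Granulocyte and monocyte markers summed to 3346 to 7079 in VavCre Rps19flox/+ and 14786 to 18898 in Rps19flox/+, with 8 of 8 called lower, and B-lymphoid markers summed to 22.7 to 44.0 in VavCre Rps19flox/+ and 517 to 1047 in Rps19flox/+, with 5 of 5 called lower. Megakaryocyte markers summed to 257 to 303 in VavCre Rps19flox/+ and 563 to 629.5 in Rps19flox/+, with 4 of 4 called lower. Their part in the result was not tested.

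Of the activators Psme4 had 226, 569 and 328 in VavCre Rps19flox/+, against 766, 734 and 696 in Rps19flox/+ Kit+ cytoplasm, a change of -1.04 ± 0.23 (adjusted p = 0.00174). Every VavCre value lay below the controls, and replicate 1 was again the lowest. Psme1 and Psme2 changed by -0.23 and -0.23, and each call was lost in 4 of 6 fits without 1 library (adjusted p up to 0.0773 and 0.127). Psme3 rose by 0.42. Psmd9 had 1217, 946 and 962 in VavCre Rps19flox/+, against 1392, 1373 and 1446 in Rps19flox/+, a change of -0.43 ± 0.11 (adjusted p = 0.00501), Psmd10 changed by -0.38, and Psmd5 rose by 0.32. In the pathway list 14 genes rose and 12 fell, with 1.67 for Uba1, 0.50 for Adrm1, a ubiquitin receptor, and 0.27 for Nfe2l1, while Pomp changed by -0.50 and Sem1, a small lid subunit, by -0.64.

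In VavCre Rps19flox/+ Ter119+ cytoplasm limma called 0 members higher and 4 lower, against 12.5% and 13.3% of all genes. At an unadjusted p under 0.05 there were 4 higher and 8 lower, and with voom weights 1 higher and 4 lower. It called 0 of the 14 core and 0 of the 17 regulatory genes, against 0 and 4 at an unadjusted p under 0.05 and 0 and 0 with voom weights, and both medians were 0.01, against -0.03 over all genes. Without Rps19flox/+ replicate 3 the calls were 2 higher and 6 lower.

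Psmb8 had 12.6, 19.2 and 22.3 in VavCre Rps19flox/+ Ter119+ cytoplasm, against 71.6, 47.8 and 126 in Rps19flox/+, a change of -1.55 ± 0.30 (adjusted p = 0.00232). Psmb9 had 1.65, 1.28 and 6.59 in VavCre Rps19flox/+, against 43.7, 16.4 and 50.4 in Rps19flox/+, a change of -1.81 ± 0.32 (adjusted p = 0.00153). The values of Psmb9 rest on 3, 3 and 13 reads in the VavCre libraries. Psmb10, Psmb5, Psmb6 and Psmb7 were not called, at 0.78, 0.04, -0.09 and -0.06. Without Rps19flox/+ replicate 3, the highest control, Psmb10 was called higher, at 1.19 (adjusted p = 0.0016), and with voom weights at 0.99 (adjusted p = 0.0192). Psmd9 had 962, 1049.6 and 986 in VavCre Rps19flox/+, against 1279.9, 1371 and 1702 in Rps19flox/+, a change of -0.52 ± 0.13 (adjusted p = 0.00846), and Psmd10 changed by -0.48 ± 0.13 (adjusted p = 0.0157), a call lost in 2 of 6 fits without 1 library (adjusted p up to 0.0602). In Psmb8, Psmb9 and Psmd9 no VavCre library reached the lowest control. Tap1 rose by 1.13 ± 0.29 (adjusted p = 0.013), and 3 genes of the pathway list rose and 3 fell. Granulocyte and monocyte markers summed to 1729 to 2852 in VavCre Rps19flox/+ and 4545 to 7049 in Rps19flox/+, with 6 of 8 called lower. Macrophage markers summed to 514 to 865 in VavCre Rps19flox/+ and 1216 to 3717 in Rps19flox/+, with 6 of 7 called lower, and B-lymphoid markers to 7.26 to 21.4 in VavCre Rps19flox/+ and 99.1 to 175 in Rps19flox/+, with 3 of 5 called lower. Their part in the result was not tested.

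**Figure D3:**
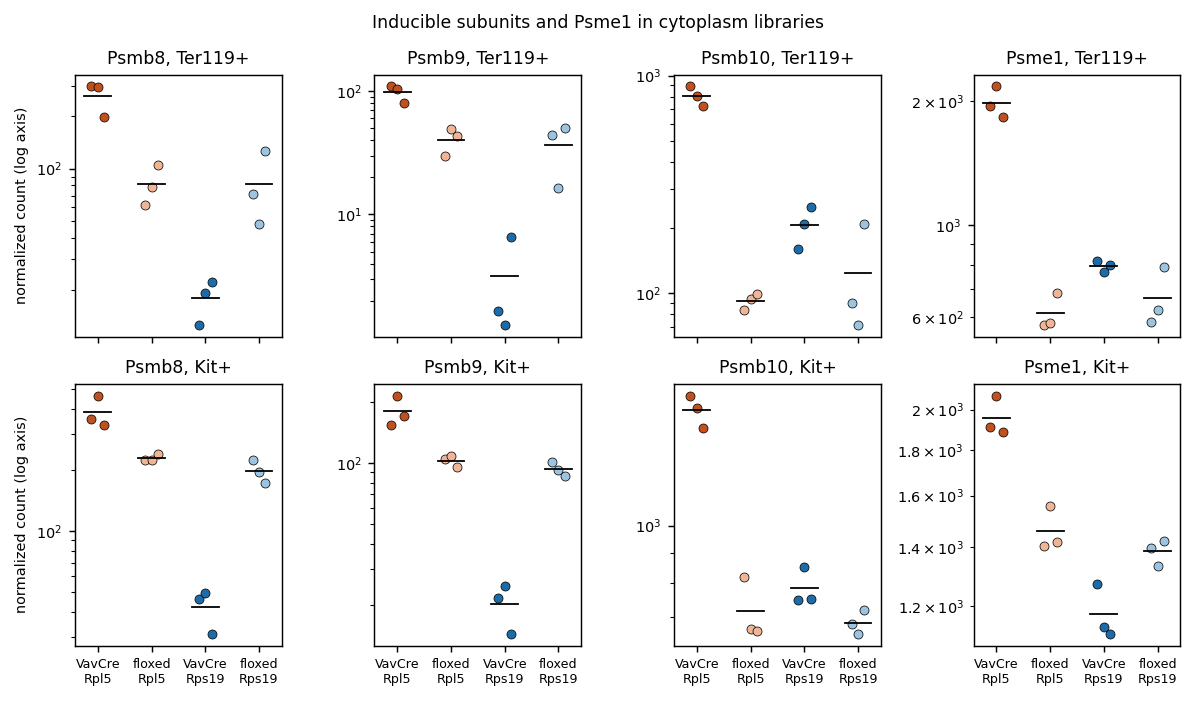
Normalized counts (log axis) of the inducible genes Psmb8, Psmb9 and Psmb10 in every cytoplasm library, with each VavCre group left of its floxed control. Psmb8 lies at 335 to 466 in VavCre Rpl5flox/+ and 31.2 to 49.5 in VavCre Rps19flox/+ Kit+ cells, and its controls lie at 173 to 241.

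Across the 4 cytoplasm comparisons, with VavCre Rpl5flox/+ Ter119+ taken as labelled, Psmd9 and Psmd10 were called lower each time, and 4 members, Psma2, Psma3, Psma6 and Psmb5, were called in none. Psmb8 and Psmb9 were called in all 4, higher in VavCre Rpl5flox/+ Kit+ and in the labelled VavCre Rpl5flox/+ Ter119+ libraries, and lower in the VavCre Rps19flox/+ libraries. With the labels of the Rpl5 Ter119+ libraries exchanged, every direction there would turn. Psmd9 and Psmd10 would then be higher in that comparison and Psmb8 and Psmb9 lower. An exchange was not tested. Kit+ progenitor markers summed to 281 to 656 in the libraries labelled Rpl5flox/+ Ter119+ cytoplasm and 2838 to 2905 in those labelled VavCre. In Rps19flox/+ Ter119+ cytoplasm they summed to 386 to 452. The Rpl5 and Rps19 lines had separate controls. In Kit+ cells 16 and 22 members were called, 9 of them in both lines (56.2% and 40.9%), of which 2 moved the same way and 7, Psmb8, Psmb9, Psmc1, Psmd5, Psmd7, Psme1 and Psme2, in opposite directions. In Ter119+ cells 33 and 4 of the 42 members were called, 4 of them in both (12.1% and 100.0%). No such overlap over all genes is given here, nor the share of all genes called in every comparison or in none. These counts therefore do not set the members apart from other genes.

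The difference between the lines, the change with Rpl5 minus that with Rps19, was called for 25 members in Kit+ cytoplasm, 11 (26.2%) higher and 14 (33.3%) lower, against 23.2% and 25.0% of all genes. It was 2.63 ± 0.23 (adjusted p = 5.49e-06) for Psmb8, 2.41 for Psmb9 and 0.93 for Psmb10, with 3 of 3 inducible genes higher. It was -1.09 ± 0.13 (adjusted p = 4.16e-05) for Psmd3, and 9 of 17 regulatory genes were lower and 2 higher. With the libraries rescaled the split was 7 higher and 15 lower, and without VavCre Rpl5flox/+ replicate 1, Rpl5flox/+ replicate 3 or Rps19flox/+ replicate 1 it was 16 calls each. Psmb5, Psmb6 and Psmb7 differed by 0.03, which was not called, 0.26 and -0.36. Psme2 differed by 0.73. Psme4 differed by 0.85, but without 1 library its call was lost in 10 fits of 12 (adjusted p 0.0512 to 0.104), and it was 0.55 without VavCre Rps19flox/+ replicate 1. The call of Psmb6 was lost in 9 of those 12 fits and with the libraries rescaled (adjusted p = 0.126).

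In Ter119+ cytoplasm, where the Rpl5 term takes its direction from the labels that Rpl5 itself goes against, the lines differed in 18 members, 7 (16.7%) higher and 11 (26.2%) lower, against 20.5% and 20.9% of all genes, or 5 higher and 13 lower with the libraries rescaled. Psmb8, Psmb9 and Psmb10 differed by 3.09 ± 0.42 (adjusted p = 0.00012), 2.86 and 2.16. Of the regulatory genes 8 of 17 were lower, with -0.99 for Psmd1 and -0.90 for Psmd14. Psme3 and Psmd5 differed by -1.52 ± 0.33 (adjusted p = 0.00283) and -1.0, and Psme1 by 1.40. Psmb7 differed by -0.52, a call lost in 3 of 12 fits without 1 library (adjusted p up to 0.0571), while Psmb5 and Psmb6 were not called, at 0.21 and 0.23.

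The change in Ter119+ minus that in Kit+ cytoplasm was tested within each line. For Rpl5, with the direction in Ter119+ again that of the labels, it was called higher for 7 members (16.7%) and lower for 15 (35.7%), against 25.8% and 22.6% of all genes. It was lower for 11 of 17 regulatory genes, and higher for 4 of 14 core genes and lower for 1. It reached 1.82 ± 0.31 (adjusted p = 6.84e-05) for Psmb10, 1.34 for Psma8 and 1.25 for Psme1, and -1.76 ± 0.26 (adjusted p = 1.15e-05), -1.02 and -0.66 for Psme3, Psmd5 and Psmd10. Psmb8 and Psmb9 were not called, at 0.83 and 0.33, nor were Psmb5 and Psmb6, at 0.13 and -0.11, and Psmb7 differed by -0.56. Psmb8 was called in 3 of 12 fits without 1 library, at 0.97 to 1.01.

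For Rps19 the cell types differed in 1 member higher (2.38%), Psme1, and 6 lower (14.3%), against 3.93% and 8.35% of all genes. The differences were 0.50 ± 0.15 (adjusted p = 0.0323) for Psme1, -0.79 for Psme3, -0.63 for Psmd5, -0.50 for Psmc4, -0.44 for Psmc2, -0.39 for Psmb7 and -0.34 for Psmc3. With the libraries rescaled 0 were higher and 4 lower, and without any 1 library 2 to 6 were called, with 2 without Rps19flox/+ Kit+ replicate 1. Of the 12 such fits the call of Psme3 was lost in all 12 (adjusted p 0.0514 to 0.117), of Psmc3 in 10, of Psmb7 in 9, of Psme1 in 8, of Psmc2 in 7 and of Psmc4 in 1, while that of Psmd5 was kept. Psmb5, Psmb6, Psmb8, Psmb9 and Psmb10 were not called, at -0.05, -0.08, 0.38, -0.12 and 0.59, but Psmb10 was called, at 1.0 (adjusted p = 0.00416), without Rps19flox/+ Ter119+ replicate 3.

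Core and regulatory genes were also set against each other within each library, as the mean log2 value of the 14 core genes minus that of the 17 regulatory genes. Its level depends on gene length, and only its shifts between libraries are compared. In cytoplasm it was 0.34 ± 0.09 in the libraries labelled VavCre Rpl5flox/+ Ter119+ and -0.28 ± 0.11 in Rpl5flox/+ Ter119+, and 0.54 ± 0.06 in VavCre Rpl5flox/+ and 0.42 ± 0.02 in Rpl5flox/+ Kit+ cells (SD, n = 3 each). The labelled Ter119+ libraries, at 0.24 to 0.41, lay above their controls, at -0.38 to -0.16. It was -0.17 ± 0.11 in VavCre Rps19flox/+ and -0.13 ± 0.11 in Rps19flox/+ Ter119+ cytoplasm, and 0.19 ± 0.10 in VavCre Rps19flox/+ and 0.36 ± 0.04 in Rps19flox/+ Kit+ cytoplasm (SD, n = 3 each). Here the Ter119+ groups overlapped and the Kit+ groups did not, at 0.12 to 0.30 in VavCre Rps19flox/+ and 0.32 to 0.39 in Rps19flox/+. All members together took 4970.1 ± 488 reads per M in the labelled VavCre and 2859.7 ± 523 in the Rpl5flox/+ Ter119+ libraries, and 4010.4 ± 108 in VavCre Rps19flox/+ and 3088 ± 118 in Rps19flox/+ Ter119+ cytoplasm. In Kit+ cytoplasm they took 8572 ± 563 in VavCre Rpl5flox/+ and 8681 ± 95.7 in Rpl5flox/+, and 9848 ± 97.1 in VavCre Rps19flox/+ and 8983 ± 183 in Rps19flox/+. On Kit+ polysomes the core minus regulatory value was 0.48 ± 0.07 in VavCre Rps19flox/+ and 0.15 ± 0.23 in Rps19flox/+, opposite in direction to cytoplasm. It was 0.47 in the 1 VavCre Rpl5flox/+ library and 0.31 ± 0.23 in Rpl5flox/+. On Ter119+ polysomes it was 0.04 ± 0.93 in the labelled VavCre Rpl5flox/+ and 0.25 ± 0.14 in the 2 Rpl5flox/+ libraries. It was 0.20 ± 0.12 there in VavCre Rps19flox/+ and 0.08 ± 0.10 in Rps19flox/+.

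**Figure D4:**
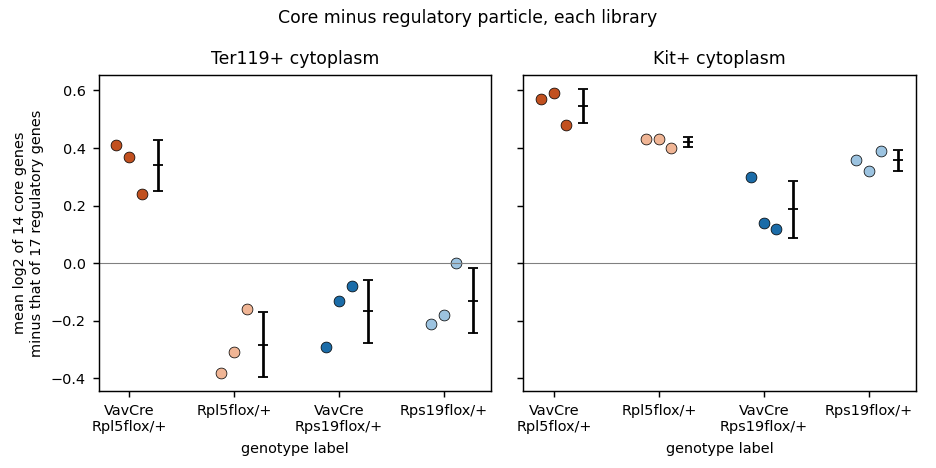
Mean log2 value of the 14 core genes minus that of the 17 regulatory genes in each cytoplasm library, with each VavCre group left of its floxed control and bars for group means. In Ter119+ cytoplasm the labelled VavCre Rpl5flox/+ libraries lie at 0.24 to 0.41 and their controls at -0.38 to -0.16.

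On polysomes the members were compared with the cytoplasm of the same pool. In control Kit+ cells 18 members (42.9%) were higher on polysomes and 9 (21.4%) lower, against 7.69% and 37.4% of all genes, whose median was -1.32. With both fractions rescaled together these were 20 higher and 6 lower, with a median over all genes of -1.85. In the core 6 of 7 beta ring genes were higher and 1 lower, while limma called 0 of 7 alpha ring genes higher (1 at an unadjusted p under 0.05 and 1 with voom weights) and 2 lower. Higher in the regulatory particle were 4 of 6 ATPase genes, 3 of 3 other base genes and 2 of 8 lid genes, and 3 lid genes were lower. The polysome libraries differ from cytoplasm in depth (1.01 to 7.17 M reads in the control Kit+ polysomes) and in the share of reads of Lars2 (10.3 to 54.9%, against 0.559 to 2.12% in their cytoplasm), whose part in the result was not tested.

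Psmb5 had 9939 at the lowest, 11377 at the median and 14338 at the highest on Kit+ polysomes, against 2206 at the lowest, 2349 at the median and 2449 at the highest in cytoplasm, a change of 2.33 ± 0.11 (adjusted p = 9.4e-07), higher in 6 of 6 pools. Psmc5, an ATPase gene, had 9701 at the lowest, 12204 at the median and 14224 at the highest on Kit+ polysomes, against 2237 at the lowest, 2371 at the median and 2654 at the highest in cytoplasm, a change of 2.31 ± 0.11 (adjusted p = 9.4e-07), also in 6 of 6 pools. The fractions did not overlap in either gene. Psmb10 changed by 3.27 ± 0.15 (adjusted p = 6.63e-07), Psmb3 by 2.31, Psmd13, of the lid, by 2.09, Psmd4 by 1.62 and Psmb6 and Psmb7 by 1.22 and 0.55, the call of Psmb7 being lost without Rps19flox/+ replicate 2 (adjusted p = 0.0622). Psmb8 and Psmb9 were not called, at -0.59 and -0.08.

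Lower on Kit+ polysomes was Psmd5, with 119.8 at the lowest, 384 at the median and 955 at the highest on these polysomes, against 1328 at the lowest, 1392 at the median and 1439 at the highest in cytoplasm, a change of -1.93 ± 0.38 (adjusted p = 0.00406). Its 6 polysome values lay below every cytoplasm value, and Psmd6, of the lid, and Psme3 were lower, at -1.40 and -1.24. Another lid gene counted as lower, Psmd14, lost its call in 5 of 6 fits without 1 pool (adjusted p up to 0.107). Psma1 changed by -2.69 ± 0.84 (adjusted p = 0.0283), with 0 reads in Rps19flox/+ replicate 1, and its adjusted p by limma was 0.051 without Rpl5flox/+ replicate 1 and 0.0591 without Rps19flox/+ replicate 2. Psma8 had 0 reads in all 6 of these polysome libraries, so no fold is given.

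In control Ter119+ cells, with 5 pools, 12 of 41 members tested (29.3%) were higher on polysomes and 5 (12.2%) lower, against 4.81% and 21.9% of all genes, whose median was -0.66. With both fractions rescaled together they were 16 higher and 0 lower, with a median over all genes of -0.47, and 10 were called without Rpl5flox/+ replicate 2 or Rps19flox/+ replicate 1. Again 5 of 7 beta ring genes were higher, and limma called 0 of 7 alpha ring genes higher, also at an unadjusted p under 0.05 and with voom weights. Psmb3, Psmb4, Psmb6, Psmb1 and Psmb5 changed by 0.91, 0.88, 0.81, 0.76 and 0.74. Psmd13 and Psme2 changed by 1.03 ± 0.22 (adjusted p = 0.00781) and 1.01 ± 0.17 (adjusted p = 0.00241), and Psmb10 by 1.43. The call of Psmb10 was lost in 4 of 5 fits without 1 pool (adjusted p 0.07 to 0.0919), with the libraries rescaled (0.0512) and without the block (0.0718), and that of Psmb5 in 2 of 5 (up to 0.0531). Psmd5 was lower, at -0.95 ± 0.21 (adjusted p = 0.00835), in 5 of 5 pools, a call lost with the fractions rescaled together. Psmb7, Psmb8 and Psmb9 were not called, at 0.28, 0.35 and 1.31.

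**Figure D5:**
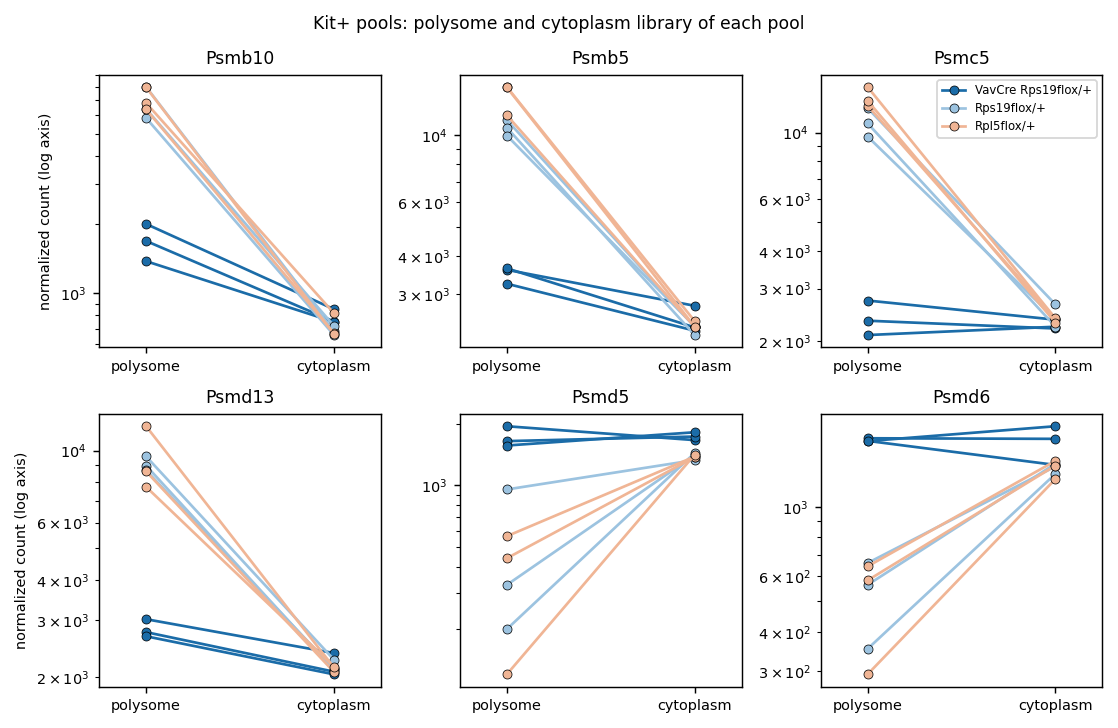
Normalized counts (log axis) of proteasome genes in polysome and cytoplasm libraries of Kit+ pools, polysome left, with lines joining the fractions of a pool. The pools are the 6 controls, Rpl5flox/+ and Rps19flox/+, and those of VavCre Rps19flox/+. Psmb5, Psmb10 and Psmc5 are higher on polysomes in 6 of 6 control pools, and Psmd5 is lower in all 6.

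Between control polysomes, 4 of 41 members (9.76%) were higher in Ter119+ than in Kit+ cells and 9 (22%) lower, against 16.4% and 7.33% of all genes, whose median was 0.56. Psme3 was higher by 3.47 ± 0.39 (adjusted p = 2.81e-06), Psme4 by 2.27, Psmd5 by 2.08 and Psmd8 by 1.22. Psmb10 was lower, at -4.52 ± 0.40 (adjusted p = 1.36e-07), and so were Psmb3 at -2.16, Psmb5 at -1.57, Psmd1 at -1.39, Psmc5 at -1.31 and Psmb4 at -1.16. Of the 17 regulatory genes 1 was higher and 4 were lower. Psmb6, Psmb7, Psmb8 and Psmb9 were not called, at -0.49, 0.52, -0.28 and 0.24, but Psmb6 was called lower, at -0.85 (adjusted p = 0.019), without the libraries under 2 M reads. Lars2 took 0.165 to 17.3% of reads in these Ter119+ and 10.3 to 54.9% in these Kit+ polysome libraries, and its part in the result was not tested.

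In VavCre Rps19flox/+ Kit+ polysomes 4 members (9.52%) were higher and 10 (23.8%) lower, against 6.19% and 3.68% of all genes, whose median was 1.11. The median over the members was -0.13. Of the core 3 genes fell, all of the beta ring, and of the regulatory particle 6 fell and 3, all of the lid, were called higher. The VavCre libraries held 10.8 to 37.6 M reads, with 0.382 to 4.51% from Lars2, and the controls 1.01 to 7.17 M, with 10.3 to 54.9%. Granulocyte and monocyte markers summed to 2469.6 to 5942 in VavCre Rps19flox/+ and 22245 to 32385 in Rps19flox/+, with 2 of 8 called lower. Their part in the result was not tested.

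Psmc5 had 2735, 2340.4 and 2095 in VavCre Rps19flox/+ Kit+ polysomes, against 12088, 10744 and 9701 in Rps19flox/+, a change of -2.18 ± 0.17 (adjusted p = 0.00013). Psmb5 had 3609, 3649.5 and 3249 in VavCre Rps19flox/+, against 11174, 10543 and 9939 in Rps19flox/+, a change of -1.59 ± 0.16 (adjusted p = 0.000505). Psmb10 had 1381, 2009.6 and 1693 in VavCre Rps19flox/+, against 7996, 5848 and 6405 in Rps19flox/+, a change of -1.99 ± 0.21 (adjusted p = 0.000605). Every VavCre library lay below every control in these 3 genes. Psmd13 had 3024, 2759 and 2679 in VavCre Rps19flox/+, against 9596, 8991 and 8695 in Rps19flox/+, a change of -1.68 ± 0.19 (adjusted p = 0.000748), and the groups did not overlap. Psmd1, Psmb3 and Psmd2 changed by -1.74, -1.50 and -1.38. The lid genes Psmd6, Psmd8 and Psmd7 were called higher, at 1.65, 1.31 and 1.17. The calls of all 3 were lost without any 1 VavCre library (adjusted p by limma up to 0.128 for Psmd6, 0.162 for Psmd8 and 0.124 for Psmd7), and those of Psmd8 and Psmd7 without the libraries under 2 M reads, at 0.50 (adjusted p = 0.0904) and 0.87 (adjusted p = 0.0539). Psma8 had 83.4, 61.7 and 58.8 in the VavCre libraries and 0 reads in all 3 controls. In those controls 3 reads are worth a normalized count of 62.3, 5.74 and 39.7, so no fold is given. Psmb6, Psmb7, Psmb8 and Psmb9 were not called, at -0.31, -0.31, -0.11 and -0.29.

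Set against the cytoplasm of the same pools, the change of polysome over cytoplasm in VavCre Rps19flox/+ minus that in Rps19flox/+ Kit+ cells was called higher for 1 member (2.38%), Psma8, and lower for 11 (26.2%), against 5.81% and 2.70% of all genes, whose median was 1.19. It was -2.18 ± 0.27 (adjusted p = 0.00328) for Psmb10, -2.09 for Psmc5, -1.95 for Psmd2, -1.68 for Psmd13, -1.67 for Psmb5 and -1.62 for Psmb3. Lower were 4 core and 6 regulatory genes. Without VavCre Rps19flox/+ replicate 1, 2 or 3 the count was 7 each time, and Psma8 lost its call in all 3 (adjusted p up to 0.0935). Psmb6, Psmb7, Psmb8 and Psmb9 were not called, at -0.30, -0.64, 1.81 and 1.40.

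With the label VavCre Rpl5flox/+ Ter119+ on polysomes, 3 libraries against 2, 5 members (11.9%) were higher and 4 (9.52%) lower, against 2.96% and 10.3% of all genes, whose median was -1.0. Psmb10 had 9285, 4893 and 6456 in the labelled VavCre libraries, against 95.9 and 204 in Rpl5flox/+, a change of 5.42 ± 0.63 (adjusted p = 0.000202). Psmb3 had 14129, 9247 and 14252 in the labelled VavCre libraries, against 2497 and 2558 in Rpl5flox/+, a change of 2.28 ± 0.42 (adjusted p = 0.00352). Psme3 had 2827, 4618 and 975 in the labelled VavCre libraries, against 34177 and 53283 in Rpl5flox/+, a change of -4.18 ± 0.55 (adjusted p = 0.000411). The groups did not overlap in these 3 genes, and the labelled replicate 3, with 1.02 M reads, was the lowest in Psme3. Also called were Psmd1 at 1.89, Psmb5 at 1.61, Psmb4 at 1.38, Psma1 at -2.44, Psmd5 at -1.88 and Psme4 at -1.79. Without Rpl5flox/+ replicate 1 or 2 the calls were 3 and 4. Of the 5 fits without 1 library the call was lost in 3 for Psmd1 and Psmb4 (adjusted p up to 0.255 and 0.251), in 2 for Psma1, Psmd5 and Psme4 (up to 0.235, 0.161 and 0.192) and in 1 for Psmb5 (0.196). Psmb6, Psmb7, Psmb8 and Psmb9 were not called, at -0.40, -0.52, 1.89 and 0.03. Lars2 took 1.37 to 35.1% of reads in the labelled VavCre libraries and 0.165 to 4.47% in the controls. Erythroid markers summed to 59659 to 142328 in the labelled VavCre libraries and 734313 to 985819.6 in the controls, with 5 of 5 called lower, and granulocyte and monocyte markers to 36057 to 89095 in the labelled VavCre libraries and 4506 to 6320.3 in the controls, with 4 of 8 called higher. The part of these in the result was not tested. Rpl5 had 547, 409.6 and 6334 in the labelled VavCre libraries, against 110.2 and 226 in Rpl5flox/+. These levels again go against the label, so these directions too are those of the labels. The change of Rpl5, 2.73 ± 1.01, was not called by limma (adjusted p = 0.096), and 6334 is that of replicate 3, with 1.02 M reads. Rps19 averaged 55643 ± 5961 in the labelled VavCre libraries and 19184 ± 4868 in Rpl5flox/+.

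The remaining polysome comparisons called few members. With 1 VavCre Rpl5flox/+ Kit+ polysome library, assumed to vary like the other groups, Psmd1 had 1004 in that library, against 3835, 3300.0 and 5324 in Rpl5flox/+, a change of -2.0 ± 0.41 (adjusted p = 0.0373). This p holds no spread within the VavCre group, and it was 0.175 with the 2 groups alone and with the replicate block, 0.0844 with a minimum of 100 and 0.0643 with voom weights. Of all genes 1.82% were called in either direction. Psmb5, Psmb6, Psmb7, Psmb8, Psmb9 and Psmb10 were not called, at 0.06, -0.32, -0.19, 1.79, 1.19 and 0.54. In VavCre Rps19flox/+ Ter119+ polysomes Psmd13 was called lower, with 2761, 1822 and 2455 in the VavCre libraries, against 8165, 4514 and 12753 in Rps19flox/+, a change of -1.74 ± 0.36 (adjusted p = 0.0466), and 0.801% of all genes were called in either direction. Both calls were lost without 1 library, Psmd1 without Rpl5flox/+ replicate 1 or 3 and Psmd13 without any of 5 of the 6 libraries. Psmb5, Psmb6, Psmb7, Psmb8, Psmb9 and Psmb10 were not called there, at -0.69, -0.45, -0.71, -1.79, -3.34 and -0.65.

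Between polysome and cytoplasm of the Ter119+ pools, limma called 0 members for VavCre Rps19flox/+ minus Rps19flox/+, where 0.0184% of all genes were called, and 0 for the labelled VavCre Rpl5flox/+ minus Rpl5flox/+, where 0.00918% were called. At an unadjusted p under 0.05 they were 9 and 12 members. With voom weights on whole reads 1 and 0 members were called, and without VavCre Rpl5flox/+ Ter119+ replicate 2 it was 5 for Rpl5. Psmb5, Psmb6, Psmb7, Psmb8, Psmb9 and Psmb10 were at -0.72, -0.36, -0.64, -0.24, -1.53 and -1.43 for Rps19, and at 1.39, -0.53, 0.15, 0.18, -1.06 and 2.43 for Rpl5.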

How the data were processed

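The members and the pathway and marker lists were chosen with earlier results of these data known. The authors deposited log2 values of 13449 genes in 45 libraries, per the file headers. Read back through the transformation, 100% of the values gave whole reads (largest deviation 4.7e-07, tolerance 1e-06) divided by size factors, which matched medians of ratios taken over those 2434 genes that had reads throughout. The values thus hold a variance-stabilising transformation, with 0 reads at 2.92263. The genome build was mm10, per the submitters' processing notes. The aligner, the counting tool and the strand remain not given in the sources used here. Symbols, positions and promoters came from RefSeq tables of GRCm38.p6.

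Changes were tested on the deposited log2 values, across all genes whose normalized count averaged 10 or more. The tests used lmFit and eBayes (trend on) of limma 3.58.1, run in R 4.3.3, and were two-sided, with p adjusted by Benjamini-Hochberg and a threshold of 0.05. Each VavCre group was set against the floxed group of its line, cell type and fraction, with the 4 genotypes sharing 1 estimate of the spread. In comparisons of fractions the pool was a block, and control comparisons a term for the line. Any member could be named. The text gives Psmb5 to Psmb10 in each comparison and up to 6 members with the largest called changes in each direction, and every library for the largest called change of a role. Among 43 replicate pairs none were copies (lowest chi-square per degree of freedom 22.28). Replicate numbers were taken to pair libraries where the deviations of every pair correlated above 0.1, which held for Rpl5 in Kit+ cytoplasm (0.23 to 0.31) and in Ter119+ cytoplasm (0.13 to 0.26) and not elsewhere (lowest -0.06 to 0.03). The analysis was tested on simulated data. Alternatives were log2 of the normalized count plus 1, no filter, a minimum of 100, rescaled libraries, voom weights on whole reads, the replicate block, 2 groups alone, leaving out libraries under 2 M reads and leaving out each library. Rescaling both fractions together was chosen after seeing the data.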

Additional observations from a re-analysis of the deposited data

Results flagged for a closer look

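In the control groups of 4 to 10 libraries, 56 sets of values were searched for a library apart from the others, of which chance gives about 1 in 20, and 2 were found. Psmb10 stood at 208 in Rps19flox/+ Ter119+ cytoplasm replicate 3, above the other 5 control Ter119+ libraries. Psmb9 stood at 0 in Rps19flox/+ Kit+ polysome replicate 1, a library of 1.01 M reads, in which 3 reads are worth 62.3.

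The other results were picked out because the same contrast differed between lines, cell types or fractions by limma's test of the difference. Between the lines (Rpl5 minus Rps19) 25 members differed in Kit+ cytoplasm, led by Psmb8 at 2.63, Psmb9 at 2.41, Psmd3 at -1.09, Psmb10 at 0.93, Psme4 at 0.85 and Psme2 at 0.73. The call of Psme4 was lost on leaving out any of 10 of the 12 libraries, with 0.55 without VavCre Rps19flox/+ replicate 1. In Ter119+ cytoplasm, with the Rpl5 direction that of the labels, 18 differed, led by Psmb8 at 3.09, Psmb9 at 2.86, Psmb10 at 2.16, Psme3 at -1.52, Psme1 at 1.40 and Psmd5 at -1.0. Between the cell types (Ter119+ minus Kit+) 22 members differed for Rpl5, again as labelled, led by Psmb10 at 1.82, Psme3 at -1.76, Psma8 at 1.34, Psme1 at 1.25, Psmd5 at -1.02 and Psmd10 at -0.66. For Rps19 7 differed, led by Psme3 at -0.79, Psmd5 at -0.63, Psme1 at 0.50, Psmc4 at -0.50, Psmc2 at -0.44 and Psmb7 at -0.39. The call of Psme3 was lost without any 1 of the 12 libraries, of Psmb7 in 9 such fits, of Psme1 in 8, of Psmc2 in 7 and of Psmc4 in 1. In the change of polysome over cytoplasm with Rps19 in Kit+ cells 12 differed, led by Psma8 at 3.05, Psmb10 at -2.18, Psmc5 at -2.09, Psmd2 at -1.95, Psmd13 at -1.68 and Psmb5 at -1.67. The value of Psma8 is a fitted one against controls without reads and is no measure of size.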

How the results depend on the processing

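Of the counts of called members, recomputed under every alternative, 332 stayed within 1.5 times the reported value and 47 did not. Changes of single members were followed only for those named by the rule in each comparison. Of these changes 3220 kept their direction and side of the threshold, 220 lost their call, 15 gained one and 0 reversed. Calls gained by other members are not among the 15. An example is Psmb4 for Rps19 in Kit+ polysomes, at -1.17 with voom weights (adjusted p = 0.0063 by limma). Of the counts that moved 31 involved polysomes, where depth was lowest, and 16 cytoplasm alone, 10 of them the cell type difference for Rps19, and the cause was not tested. Rpl5 in Kit+ polysomes gave 0 calls with a minimum of 100, with voom weights, with the replicate block and with 2 groups alone, and 5 without libraries under 2 M reads. Rpl5 in Ter119+ polysomes gave 4 with 2 groups alone. Rps19 in Ter119+ polysomes gave 0 with log2 of the count plus 1, without a filter and rescaled, 4 with voom weights, 2 with 2 groups alone and 5 without libraries under 2 M reads. The cell type difference for Rps19 gave 4 rescaled. The difference in polysome over cytoplasm for Rps19 in Ter119+ cells gave 1 with voom weights and 3 without libraries under 2 M reads.

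Leaving out 1 library gave these lowest and highest counts. In cytoplasm they were 10 to 17 for Rpl5 and 17 to 22 for Rps19 in Kit+ cells, and 27 to 31 for Rpl5 and 3 to 8 for Rps19 in Ter119+ cells. On polysomes they were 0 to 1 for Rpl5 and 11 to 17 for Rps19 in Kit+ cells, and 3 to 10 for Rpl5 and 0 to 3 for Rps19 in Ter119+ cells. For Ter119+ against Kit+ controls they were 34 to 36 in cytoplasm and 13 to 14 on polysomes. For polysome against cytoplasm they were 23 to 27 in Kit+ and 10 to 15 in Ter119+ controls. The lines differed in 16 to 28 in Kit+ and 16 to 22 in Ter119+ cells, and the cell types in 19 to 24 for Rpl5 and 2 to 6 for Rps19. The difference in polysome over cytoplasm gave 7 to 16 for Rps19 in Kit+ cells, 0 to 1 for Rps19 and 0 to 5 for Rpl5 in Ter119+ cells. With Rpl5 in Ter119+ cytoplasm 4 to 6 core genes were higher and 9 to 13 regulatory genes lower. With Rps19 in Kit+ cytoplasm 8 to 10 regulatory genes were higher. In Ter119+ against Kit+ control cytoplasm 14 to 15 regulatory genes were higher and 8 core genes lower each time. On control Kit+ polysomes 5 to 7 core and 8 to 10 regulatory genes were higher.

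The replicate block gave 11 higher and 4 lower for Rpl5 in Kit+ cytoplasm and 12 higher and 20 lower in Ter119+ cytoplasm, where the numbers paired the libraries. Elsewhere libraries share only a number, and the block gave 22 and 6 calls for Rps19 in Kit+ and Ter119+ cytoplasm, 16 and 1 on its polysomes and 7 for Rpl5 in Ter119+ polysomes. No value could be had for Rpl5 in Kit+ polysomes without its 1 VavCre library.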
